A study of Rattus norvegicus with 29 samples.

Results

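The comparison described here sets rats that were fear conditioned while under isoflurane against rats that received no treatment, in the basolateral amygdala. All samples titled IFC or baseline control were taken, which gives 14 of the 29 arrays of the study: 5 IFC arrays, from tissue collected 6 h after conditioning under the anaesthetic, and 9 baseline arrays, for which no time is given. All 15866 probe sets that are not array controls belong to it, and 9520 of them were bright enough to be tested. The other 15 arrays hold 5 each from rats 6 h after pain, after isoflurane alone and after conditioning awake, and they enter only the estimate of spread and the values given side by side. IFC is read as conditioning in the presence of isoflurane from the design text of the series.

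Fear conditioning pairs a neutral signal with a painful stimulus until the signal alone evokes fear. The basolateral amygdala, rich in glutamatergic projection neurons that resemble those of cortex, is where the pairing is stored, and lasting storage needs new transcription and protein synthesis in the hours after training. Isoflurane, an inhaled anaesthetic, potentiates GABA-A and glycine receptors, opens leak potassium channels, depresses glutamate release and inhibits complex I of the mitochondrial respiratory chain, and it blocks the formation of such memories. The comparison asks which transcripts differ from untreated tissue when the pairing takes place under the anaesthetic.

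Several features of the samples limit what the groups stand for. Strain, age, sex, anaesthetic dose and the length of exposure are not given in the sources used here, and neither is whether baseline rats were handled or placed in the chamber. The IFC arrays carry the rat numbers 22, 26, 29, 30 and 32, whereas no rat number is given for the baseline arrays, so those are not stated to be separate animals and p-values measure the spread between arrays. The labels name the kit used to label the RNA at baseline but none for IFC, so a difference in labelling cannot be told apart from the treatment. The tissue is a dissected block holding many cell types, and in such bulk RNA fewer cells of a type and less RNA per cell cannot be told apart.

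Signs of array quality overlapped between the groups. The log2 ratio of 3' to 5' Gapdh probe sets, a sign of RNA integrity, averaged 0.32 (SD 0.093, n = 5) in IFC and 0.267 (SD 0.131, n = 9) at baseline (two-sided exact permutation p = 0.44), and the Actb ratio averaged 0.672 (SD 0.254) and 0.546 (SD 0.204; exact permutation p = 0.329). The baseline arrays are not uniform: on the fourth principal component, which holds 6.74% of the variance, replicates 6 to 9 lie between -15.3 and -9.0 and replicates 1 to 5 between -2.0 and 11.2, with the IFC arrays between -2.6 and 3.7. The lower quartile of the deposited signal is 59.6 to 75.5 in baseline replicates 6 to 9, 79.2 to 92.2 in replicates 1 to 5 and 74.5 to 83.2 in IFC. The main results are therefore also given against each part of the baseline. The pain array of replicate 3 stands apart on the first component (-49.9) and touches the comparison only through the shared estimate of spread.

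The neuronal markers Slc17a7, Camk2a and Nrgn were bright, whereas Cyp26b1 and Tbr1 were dim. Slc17a7, the vesicular glutamate transporter of cortical-type neurons, read 11.59 to 11.96 in IFC and 10.60 to 12.18 at baseline on the log2 signal scale, Camk2a 10.52 to 11.58 and 9.89 to 11.72, and Nrgn 12.46 to 12.81 and 12.40 to 12.75. Cyp26b1, which marks the basolateral complex, read 7.61 to 8.45 in IFC and 6.58 to 8.29 at baseline. Tbr1 lay below the filter, with means of 6.29 and 6.74. Of markers of the neighbouring striatum, Drd1 read 8.79 to 9.19 in IFC and 8.35 to 9.64 at baseline. Drd2 read 7.21 to 8.08 and 7.12 to 9.1. Rspo2, Etv1, Neurod6 and Lypd1 were not analysed here.

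No single probe set was called different between the 2 groups after adjustment. Of 9520 probe sets, 0 (0%) passed limma's test after Benjamini-Hochberg adjustment at 0.05, and 0.372 was the lowest adjusted p. At unadjusted p under 0.05 there were 309 higher (3.25%) and 310 lower (3.26%) probe sets. With arrays centred on their medians instead of quantile normalized, which moved the median of all probe sets by -0.03, the same split was 179 higher and 394 lower. The differences were small: the median absolute log2 difference was 0.0919, the 90th percentile 0.253 and the 99th percentile 0.489. Only 2 probe sets differed by more than 1 on the log2 scale, one of Sv2b and one without a gene symbol. The median 95% interval of a difference, before any adjustment, reached 0.259 to either side. Larger differences did not pass adjustment either, among them 0.5 for Opcml and 1.48 for Sv2b. The absence of calls therefore does not exclude shifts above 0.259.

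**Figure D1:**
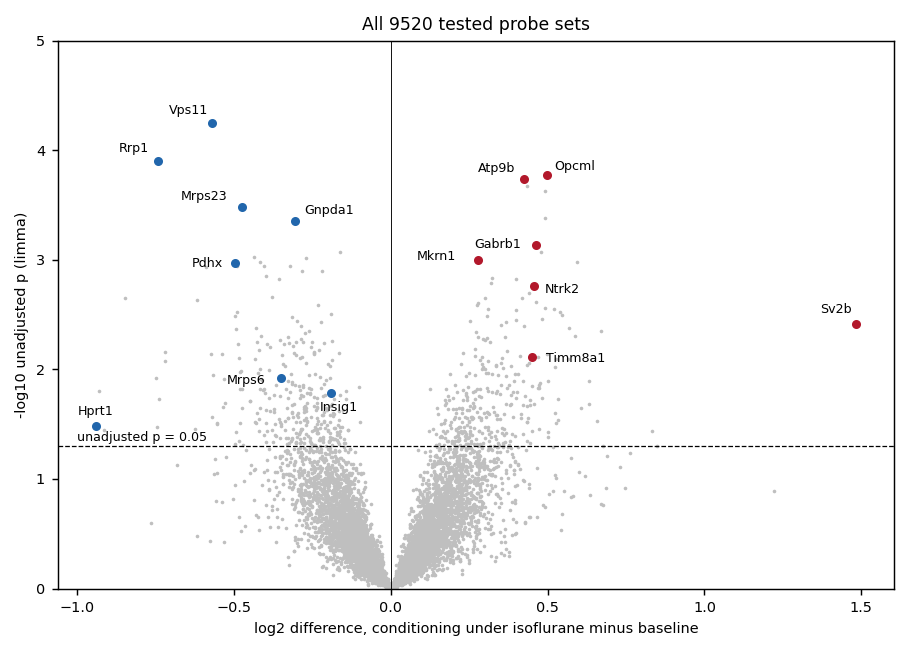
Each point is 1 of the 9520 tested probe sets, with the log2 difference of 5 IFC and 9 baseline arrays on the x axis and -log10 of limma's unadjusted p on the y axis; the dashed line marks unadjusted p = 0.05 and coloured points are genes named in the text. Vps11 and Rrp1 have the lowest p among lower genes and Opcml and Atp9b among higher genes, while Sv2b has the largest difference (1.48) with a middling p.

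The answer depended on which baseline arrays were used. Against baseline replicates 1 to 5 alone limma called 0 probe sets, with a lowest adjusted p of 0.929. Against replicates 6 to 9 alone it called 57 of the 9520 tested, with a lowest adjusted p of 0.0172. Among the 117 genes followed here, 12 passed in that second setting. Larp1, Mtf1, Ntrk2, Secisbp2l, Selenof, Ctnnd1 and Lgmn were higher, and Rrp1, Mrps23, Fbxw4, Cck and Mgst3 were lower. The followed genes were named largely by low p against all 9 baseline arrays, which include replicates 6 to 9. Their share is therefore no measure of enrichment. Against all 9 arrays none of the 12 passed, and the part that array quality or labelling played in the contrast between the baseline arrays was not tested.

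The higher genes with the lowest p included cell-surface proteins of neurons. Opcml, an IgLON adhesion protein anchored in the neuronal membrane, read 10.75, 10.91, 10.85, 10.97 and 10.79 in IFC replicates 1 to 5, against 9.97 to 10.53 at baseline (median 10.43). All 5 IFC arrays lay above all 9 baseline arrays, and the difference was 0.50 (SE 0.12, 95% interval 0.26 to 0.74, limma adjusted p 0.372), or 1.41-fold; the other tested probe set of the gene differed by 0.22. Cadm1, a synaptic adhesion molecule of the immunoglobulin family, read 11.25, 11.29, 11.03, 11.23 and 11.10 against 10.52 to 11.03 (median 10.63), again with all IFC arrays above, by a small margin at the edge. Its difference was 0.49 (SE 0.12, adjusted p 0.465), and its brighter probe set differed by 0.31.

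Receptor genes stood beside them. Gabrb1, the beta-1 subunit of the GABA-A receptor and so part of a target of isoflurane, read 11.19, 11.17, 10.73, 11.04 and 11.07 in IFC and 10.06 to 10.97 at baseline (median 10.62), with 4 of 5 IFC arrays above the highest baseline array and a difference of 0.46 (SE 0.12, adjusted p 0.499). Ntrk2, the receptor for BDNF that is needed for amygdala-dependent learning, read 10.44, 10.16, 10.26, 10.43 and 10.21 against 9.56 to 10.38 (median 9.73), and the difference was 0.46 (SE 0.13, adjusted p 0.527), with 0.24 (SE 0.17) for its other tested probe set. Only 2 of the 5 Ntrk2 values lay above all baseline arrays, and baseline replicates 1 to 5 averaged 10.03 where replicates 6 to 9 averaged 9.62. Atp9b, a P4-type ATPase of the trans-Golgi network, read 8.42 to 8.97 in IFC and 8.14 to 8.46 at baseline, a difference of 0.43 (SE 0.10, adjusted p 0.372) with nearly equal means in both parts of the baseline (8.31 and 8.30).

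The other higher genes with the lowest p have varied roles. Secisbp2l, a protein related to the factor that reads selenocysteine codons, read 9.80 to 10.03 in IFC and 9.02 to 9.92 at baseline, a difference of 0.49 (SE 0.12, adjusted p 0.372). Mkrn1, an RNA-binding ubiquitin ligase, read 10.85, 10.73, 10.83, 10.87 and 10.75 against 10.36 to 10.62, which did not overlap, and differed by 0.28 (SE 0.08, adjusted p 0.499), but its other tested probe set differed by -0.03. Larp1, which binds mRNAs of the translation machinery, differed by 0.45 and its other 3 probe sets by 0.01, 0.30 and 0.23. Mbnl1, a splicing regulator, differed by 0.30, Kmt2a, a histone H3 lysine methyltransferase required for memory, by 0.48, Mtf1, the zinc-sensing activator of metallothionein genes, by 0.32, and the uncharacterized LOC100912041 by 0.59, with adjusted p from 0.499 to 0.592. Every IFC array lay above the baseline median for Kmt2a, Mtf1, Larp1 and Mbnl1, and 4 of 5 did for LOC100912041, whose values spread from 8.99 to 10.16.

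On the lower side, Vps11 and Rrp1 had the smallest p. Vps11, a core subunit shared by the HOPS and CORVET complexes that tether endosomes and lysosomes, read 9.24, 8.80, 9.31, 8.86 and 8.89 in IFC and 9.47 to 9.83 at baseline (median 9.54). The groups did not overlap, and Vps11 was 32.5% lower, a difference of -0.57 (SE 0.12, 95% interval -0.82 to -0.32, adjusted p 0.372), with like means of 9.57 and 9.61 in the parts of the baseline. Rrp1, a nucleolar protein of large-subunit ribosome assembly, read 8.87, 8.34, 9.02, 8.39 and 8.79 against 8.93 to 9.87 (median 9.51), a difference of -0.74 (SE 0.17, adjusted p 0.372). For Rrp1, 4 of 5 IFC arrays lay below all baseline arrays. Its isoflurane arrays averaged 8.95 (SD 0.29, n = 5) and those of conditioning awake 9.12 (SD 0.29, n = 5).

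Among other lower genes was Gnpda1, which converts glucosamine-6-phosphate into fructose-6-phosphate. Its values were 8.62, 8.66, 8.59, 8.53 and 8.69 in IFC and 8.81 to 9.00 at baseline, with no overlap and a difference of -0.30 (SE 0.08, adjusted p 0.465). Commd1, a regulator of copper export and endosomal sorting, read 8.53 to 8.84 against 8.89 to 9.41, also with no overlap (-0.42, SE 0.11, adjusted p 0.499). Abcc8, the sulfonylurea receptor subunit of ATP-sensitive potassium channels, read 6.78 to 7.08 against 7.02 to 7.65 (-0.44, SE 0.12, adjusted p 0.499), and its IFC mean of 6.91 lay under the 7.26 that a probe set had to reach, as a mean over all arrays, to be tested. Rpl6, a cytosolic ribosomal protein, differed by -0.16, Fbxo27, which recognizes glycoproteins for ubiquitination, by -0.40, and Fbxw4, another F-box protein, by -0.49, all at adjusted p 0.499.

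Among the 9520 tested probe sets, 10 had all IFC arrays above all baseline arrays (0.105%) and 11 had all below (0.116%). Of the 10, 7 carry 1 gene symbol: Opcml, Cadm1 and Mkrn1, described above, then Dennd4c, which activates Rab10 (0.29), Letm1, a cation exchanger of the inner mitochondrial membrane (0.19, and 0.07 for its other probe set), Ufc1, the conjugating enzyme of the ubiquitin-like modifier UFM1 (0.19), and Pip4k2a, a phosphoinositide kinase (0.18). The Ufc1 values in IFC lay within 10.13 to 10.15, the baseline values within 9.83 to 10.11. The second probe set of Pip4k2a differed by -0.43, opposite to the first.

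Of the 11 below, 10 carry 1 symbol, among them Vps11, Mrps23, Commd1 and Gnpda1. Junb, an AP-1 transcription factor that neurons switch on quickly when active, read 8.60, 8.51, 8.46, 8.67 and 8.60 in IFC and 8.68 to 9.15 at baseline (median 8.82), a difference of -0.29 (SE 0.13, adjusted p 0.743). Ier5l, related to the immediate-early gene Ier5, read 7.21 to 7.50 against 7.53 to 7.94 (-0.39, SE 0.13, adjusted p 0.624). Insig1, which holds the cholesterol sensor in the endoplasmic reticulum, read 9.58, 9.70, 9.70, 9.70 and 9.69 against 9.73 to 10.13 (-0.19, SE 0.08, adjusted p 0.69). Isoflurane alone differed from the same baseline arrays by -0.44 for Insig1 (limma adjusted p 0.0179), which was the 1 probe set called in that comparison. The others were Mier2, a chromatin corepressor subunit (-0.43), Rmc1, part of the Mon1-Ccz1 activator of Rab7 (-0.24), and Tbca, a tubulin-folding cofactor named after its values were seen (-0.22).

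**Figure D2:**
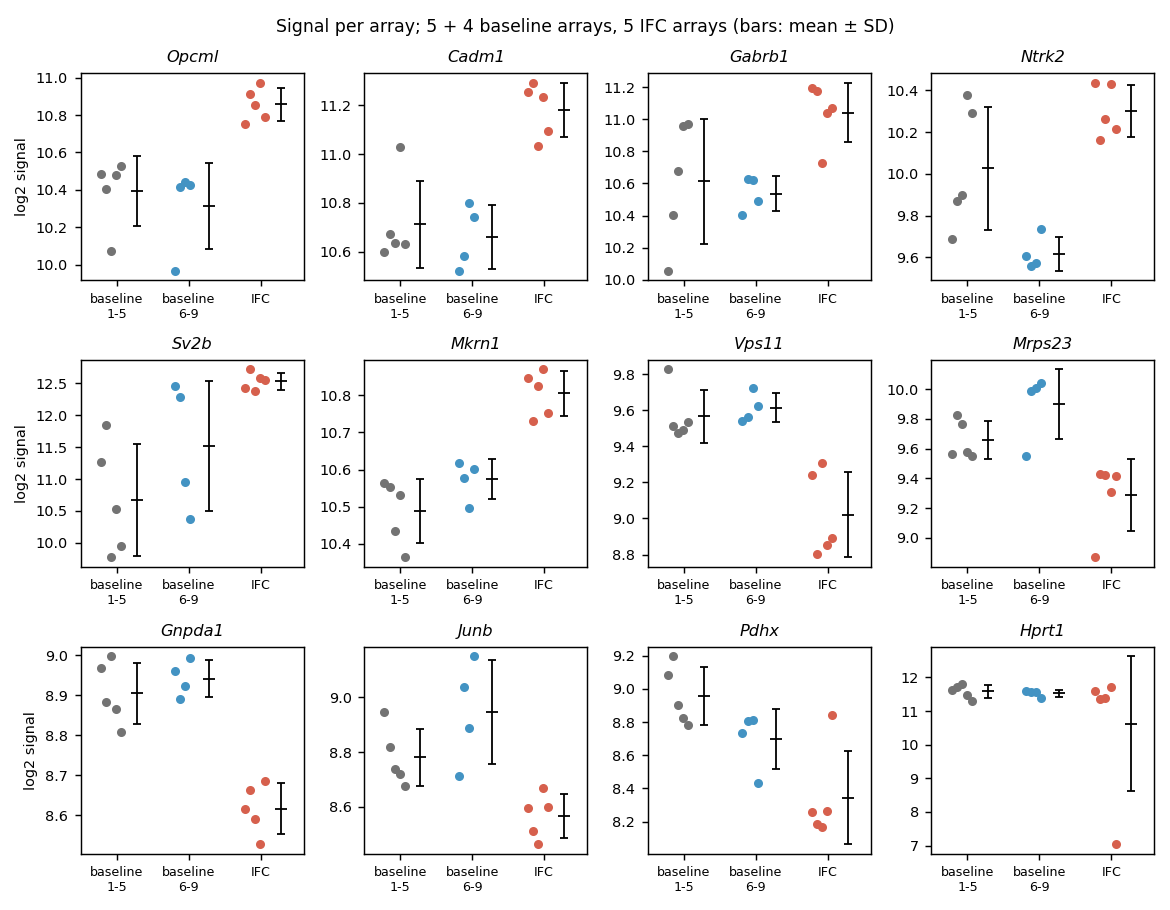
Log2 signal on each array for 12 genes, with baseline replicates 1 to 5 (grey), baseline replicates 6 to 9 (blue) and IFC (red), and the mean ± SD of each set of arrays beside the points. Opcml, Cadm1 and Mkrn1 lie above all baseline points and Vps11, Mrps23, Gnpda1 and Junb below, while Sv2b spreads from 9.77 to 12.47 at baseline and Hprt1 has 1 IFC array at 7.04.

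The largest difference belonged to Sv2b, a synaptic vesicle glycoprotein. It read 12.43, 12.72, 12.39, 12.58 and 12.55 in IFC and 9.77 to 12.47 at baseline (median 10.95), so the IFC arrays were uniformly high while the baseline arrays spread widely. The difference was 1.48 (SE 0.47, 95% interval 0.52 to 2.45, adjusted p 0.619), and the other probe set of Sv2b differed by -0.22. The isoflurane, conditioning and pain arrays spread as widely as baseline, with means of 11.40 (SD 1.00), 11.51 (SD 1.07) and 11.46 (SD 1.16, n = 5 each). At the other end, Hprt1, a purine salvage enzyme often used as a reference gene and named after its values were seen, read 11.60, 11.35, 11.40, 11.70 and 7.04 in IFC and 11.30 to 11.80 at baseline. Its difference was -0.94 with all arrays and -0.04 without IFC replicate 5.

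Genes of oxidative phosphorylation and of the mitochondrial ribosome stood mostly lower, each by little. Oxidative phosphorylation is carried by complexes I to IV, which pass electrons to oxygen and pump protons, and by the ATP synthase. Of 86 listed genes 74 were measured, and 55 were lower and 19 higher, with a median of -0.05, whereas of all 7049 tested genes 49.9% were lower and 50.1% higher and their median was 0.00. At unadjusted p under 0.05 there were 11 lower (14.9%) and 0 higher, and 0 passed adjustment, against 3.40% lower (240 genes) and 3.08% higher (217) of all genes. These shares of all genes apply beside every list below. The lists were chosen with earlier results of these data known, so their counts are a description.

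By role, complex I had 27 of 34 genes lower (median -0.08), complex II 4 of 4 (-0.21), complex III with cytochrome c 5 of 8 (-0.03), complex IV 9 of 14 (-0.02) and ATP synthase 10 of 14 (-0.05). In complex I, Ndufb11, an accessory subunit of the membrane arm, read 11.54, 11.98, 11.90, 11.87 and 11.93 in IFC and 11.98 to 12.21 at baseline (-0.23, SE 0.07, adjusted p 0.603), with 4 of 5 IFC values below every baseline value. Ndufa13, also known as a cell-death regulator, read 11.48, 11.65, 11.50, 11.41 and 11.57 against 11.57 to 11.86 (-0.20, SE 0.07, adjusted p 0.641). Ndufa11 (-0.29), Ndufv3 (-0.23) and the acyl carrier protein Ndufab1 (-0.22) were the other 3 members at unadjusted p under 0.05; these and the further members of complexes named below lie outside the naming rule and were picked by that p.

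Complex II, succinate dehydrogenase, joins the citric acid cycle to the respiratory chain and is encoded wholly by nuclear genes. The flavoprotein gene Sdha read 11.60, 11.35, 11.45, 11.18 and 11.53 in IFC and 11.42 to 11.87 at baseline (-0.25, SE 0.10, adjusted p 0.69). Sdhc, a membrane anchor, read 11.32, 11.64, 11.28, 11.03 and 11.01 against 11.24 to 11.79 (-0.27, SE 0.10, adjusted p 0.69), and the other anchor, Sdhd, 10.81 to 11.05 against 10.93 to 11.22 (-0.16, SE 0.06, adjusted p 0.635, and -0.08 for its other probe set). The groups overlapped for all 3. The iron-sulfur gene Sdhb differed least, by -0.07 (SE 0.09, adjusted p 0.93), and by 0.02 against baseline replicates 1 to 5. In the later complexes, Cox4i1 of complex IV differed by -0.10 (SE 0.04, adjusted p 0.69) and the ATP synthase subunits Atp5f1a and Atp5pd by -0.14 each (adjusted p 0.692 and 0.743).

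Nuclear genes for the respiratory chain are known to share binding motifs for ETS-family factors (which include NRF2) and for NRF1 in their promoters, so the 250 bases before the RefSeq start of 3 members (build GRCr8) are shown here: Sdha with a larger difference, Sdhb with the smallest of its complex and Ndufa13 of complex I. Capitals mark CCGGAAG, an ETS-type motif, and GCATGCGC, an NRF1-type motif, on either strand; the marked stretches do not overlap.
Sdha (chr1:30764303-30764552, plus strand): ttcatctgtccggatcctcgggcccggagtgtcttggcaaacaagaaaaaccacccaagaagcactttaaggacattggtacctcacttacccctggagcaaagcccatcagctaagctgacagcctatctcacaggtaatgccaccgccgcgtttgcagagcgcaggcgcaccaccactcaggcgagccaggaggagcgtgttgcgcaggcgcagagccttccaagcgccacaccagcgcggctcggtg
Sdhb (chr5:158547684-158547933, plus strand): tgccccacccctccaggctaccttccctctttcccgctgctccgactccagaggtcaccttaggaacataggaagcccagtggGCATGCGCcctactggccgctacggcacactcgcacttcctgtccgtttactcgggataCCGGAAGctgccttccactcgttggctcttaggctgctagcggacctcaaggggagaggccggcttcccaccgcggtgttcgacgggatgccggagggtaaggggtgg
Ndufa13 (chr16:19560276-19560525, plus strand): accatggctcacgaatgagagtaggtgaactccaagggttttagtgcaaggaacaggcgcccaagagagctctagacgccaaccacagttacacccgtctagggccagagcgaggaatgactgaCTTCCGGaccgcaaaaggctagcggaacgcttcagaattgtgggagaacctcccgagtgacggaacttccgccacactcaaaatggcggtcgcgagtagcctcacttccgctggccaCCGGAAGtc
Sdhb holds 1 ETS-type match starting 108 bases before the start and 1 NRF1-type match at 167 bases. Ndufa13 holds 2 ETS-type matches at 126 and 9 bases, and Sdha holds neither exact string. Other forms of the motifs were not searched, so Sdha is not shown to lack them. Of 67 oxidative phosphorylation genes with a promoter in the RefSeq table, 20 (29.9%) hold the ETS-type motif and 7 (10.4%) the NRF1-type, against 16.4% and 4.86% of 5921 tested genes and 7.27% and 2.20% of all 33469 promoters of this length. A match is a description of the letters only.

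The mitochondrial ribosome, which translates the few proteins encoded by mitochondrial DNA, also stood mostly lower. With the import machinery it was measured in 90 of 98 genes, of which 70 were lower and 20 higher (median -0.07), 6 lower and 1 higher at unadjusted p under 0.05, and 0 after adjustment. The 6 and 1 are 6.67% and 1.11% of the list, against 3.4% and 3.08% of all tested genes. The ribosomal proteins alone were lower in 56 of 69 genes. Mrps23, a small-subunit protein, read 8.87, 9.43, 9.43, 9.31 and 9.41 in IFC and 9.55 to 10.04 at baseline (median 9.77), with no overlap and a difference of -0.47 (SE 0.12, adjusted p 0.448); it was 28.0% lower. The large-subunit gene mrpl11 read 10.18, 10.01, 9.91, 9.85 and 9.93 against 10.13 to 10.40 (-0.27, SE 0.07, adjusted p 0.499), Mrps6 read 9.66 to 9.89 against 9.77 to 10.53 (-0.35, SE 0.13, adjusted p 0.685), and Mrpl13 and Mrpl42 differed by -0.28 and -0.29. Of the import chaperones of the intermembrane space, Timm10 differed by -0.19 and Timm8a1 by 0.45 (SE 0.16, adjusted p 0.635), the one member higher at unadjusted p under 0.05. The ETS-type motif lies in 15 of 75 promoters of this list (20.0%, against 16.4% of tested genes). The NRF1-type motif lies in 5 (6.67%, against 4.86%).

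Entry of pyruvate into the cycle held larger single differences than the cycle itself. Pdhx, which anchors the dihydrolipoamide dehydrogenase to the pyruvate dehydrogenase core, read 8.26, 8.19, 8.17, 8.26 and 8.84 in IFC and 8.43 to 9.20 at baseline (median 8.81). The first 4 values lay below all baseline values and the fifth above the median, and the difference was -0.50 (SE 0.14, adjusted p 0.499). Dld, the dehydrogenase that Pdhx anchors, read 9.58, 9.95, 9.60, 9.62 and 9.64 against 9.75 to 10.17 (median 10.04), a difference of -0.32 (SE 0.09, adjusted p 0.499), with replicate 2 apart from the other 4. Of 9 pyruvate-entry genes 7 were lower (median -0.08), and of 13 cycle enzymes 6 were lower (median 0.04), with Idh3b, a subunit of isocitrate dehydrogenase, at -0.19. Glycolysis had 10 of 14 genes higher with a median of 0.03, which was -0.05 under median centring, and its members with the lowest p went both ways: Eno2, the neuronal enolase, at 0.15 and Aldoa at -0.10.

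**Figure D3:**
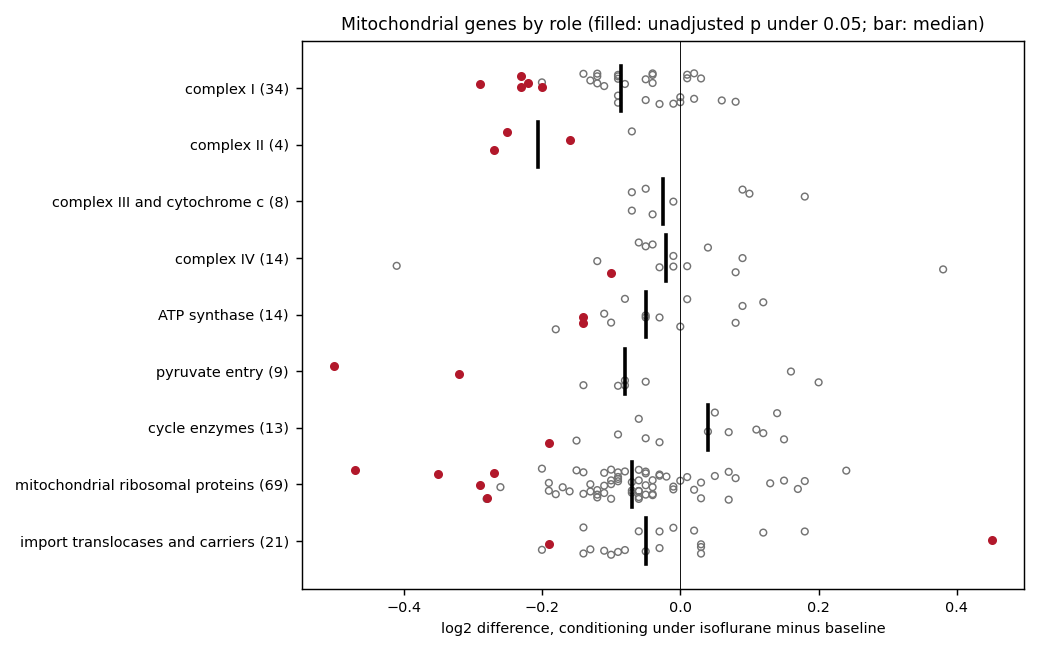
Log2 difference of IFC and baseline (x axis) for each measured mitochondrial gene, by role (rows, with the number of genes), where filled points have unadjusted p under 0.05 and black bars are medians. Most points of complexes I and II and of the mitochondrial ribosome lie left of 0, with Mrps23 and Pdhx farthest left among the filled points and Timm8a1 the only filled point to the right.

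Both lists stood lower against each part of the baseline. The median for oxidative phosphorylation was -0.04 against replicates 1 to 5 and -0.07 against replicates 6 to 9, and that for mitochondrial ribosome and import was -0.06 and -0.08. Median centring made the first -0.12, with 11 of 74 genes higher, where 39.9% of all genes were higher in that setting. The list score, which is the mean deviation of the members from their own means over all arrays, was -0.08, 0.01, -0.06, -0.06 and 0.01 for oxidative phosphorylation in IFC and -0.05 to 0.10 at baseline, so the arrays overlapped. For mitochondrial ribosome and import it was -0.06, -0.03, -0.11, -0.04 and 0.01 against -0.10 to 0.09, again with overlap.

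The other treatments share the baseline arrays, so their values are given only side by side. Oxidative phosphorylation had a median of 0.00 after isoflurane alone (37 of 74 genes lower), -0.05 after conditioning awake (50 lower) and -0.02 after pain (45 lower). Mitochondrial ribosome and import had medians of 0.01, -0.07 and 0.01, with 39, 69 and, in IFC, 70 of 90 genes lower after isoflurane, conditioning awake and IFC. Mrps6 averaged 10.38 (SD 0.20, n = 5) after isoflurane alone, 9.73 (SD 0.09, n = 5) in IFC and 10.08 (SD 0.29, n = 9) at baseline, and its IFC minus isoflurane difference of -0.65 (SE 0.15) had an adjusted p of 0.781, the lowest of that comparison and shared with 1 other probe set.

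Chaperones of the endoplasmic reticulum, which fold secreted and membrane proteins, were lower in 19 of 22 genes (median -0.07). At unadjusted p under 0.05, 0 were higher and 1 was lower (4.55%, near the 3.4% of all tested genes). That member was Creld2, a disulfide isomerase induced by misfolded proteins, which read 7.37, 7.58, 7.07, 7.84 and 7.83 in IFC and 7.56 to 8.26 at baseline (-0.42, SE 0.14, adjusted p 0.635). The protein disulfide isomerases Pdia4, Pdia3 and Pdia6 differed by -0.32, -0.17 and -0.11, and the other probe set of Pdia3 by 0.05. The list score was -0.11, -0.12, -0.12, -0.04 and 0.02 in IFC and -0.07 to 0.14 at baseline, with 3 IFC arrays below every baseline array. The median was -0.07 and -0.09 against the parts of the baseline, and -0.01, 0.01 and 0.02 after isoflurane alone, conditioning awake and pain. Heat shock proteins were higher in 11 and lower in 10 of 21 genes (median 0.02, and -0.02 under median centring).

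Astrocyte genes stood higher. Of 27 measured markers 24 were higher and 3 lower (median 0.10), 5 of them higher and 0 lower at unadjusted p under 0.05, and 0 after adjustment. The 5 are 18.5% of the list, against 3.08% of all tested genes. Gfap, the intermediate filament of astrocytes, read 12.37, 12.30, 12.42, 11.90 and 12.48 in IFC and 11.59 to 12.35 at baseline (median 11.96), a difference of 0.34 (SE 0.13, adjusted p 0.692) with overlap. The gap-junction genes Gja1 and Gjb6 differed by 0.17 and 0.42, the calcium-binding S100b by 0.12 (-0.01 under median centring) and Sparc, a secreted matrix protein also made by vessels, by 0.43. The other probe sets of Gja1 and Sparc differed by 0.05 and 0.27. All 6 genes of structure and junctions were higher, with a median of 0.26. Under median centring, where 39.9% of all genes were higher, the whole list had 16 of 27 genes higher and a median of 0.07.

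The astrocyte shift varied with the choice of baseline arrays. The astrocyte median was 0.03 against baseline replicates 1 to 5 and 0.21 against replicates 6 to 9. The astrocyte score was 0.13, 0.17, 0.12, -0.12 and -0.07 in IFC, -0.28 to 0.07 in baseline replicates 1 to 5 and -0.36 to -0.06 in replicates 6 to 9. The first 3 IFC arrays lay above all baseline arrays and the last 2 within them. Side by side, the same markers had medians of 0.06 after isoflurane alone, 0.20 after conditioning awake and 0.11 after pain.

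Vascular and meningeal genes were measured in 16 of 44 cases, with 11 higher and 5 lower (median 0.10). At unadjusted p under 0.05, 3 were higher (18.8%, against 3.08% of all tested genes). Cldn5, the tight-junction protein of brain endothelium, read 9.08, 9.00, 8.52, 8.38 and 8.68 in IFC and 7.91 to 8.56 at baseline (0.44, SE 0.16, adjusted p 0.641). Esam, another endothelial adhesion protein, differed by 0.36 and Rgs5, a pericyte marker, by 0.34, while Notch3 of smooth muscle and pericytes differed by -0.29. The list score was 0.00, 0.05, 0.36, -0.09 and -0.08 in IFC and -0.29 to 0.30 at baseline. IFC replicate 3 stood highest of these, and without it the list median was 0.02. On the 5 meningeal fibroblast genes that array scored 1.02, against -0.32 to -0.04 on the other IFC arrays and -0.51 to 1.09 at baseline. Its score on the 8 endothelial genes was 0.03. Of the endothelial genes, 7 were higher (median 0.14). The extracellular matrix and remodelling list, which shares Sparc with the astrocyte list, had 15 of 20 genes higher (median 0.08), among them Plat, the tissue plasminogen activator (0.53, SE 0.21), and its inhibitor Serpine2 (0.34, SE 0.17).

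Other glial and non-neural markers showed no common direction. Myelin and oligodendrocyte genes were higher in 9 and lower in 9 of 18 (median 0.00, and -0.08 under median centring), with Mbp at 0.03 (SE 0.07, and -0.09 under median centring), Mal at 0.20 and Sirt2 at 0.12. The same list had all 18 genes higher after conditioning awake (median 0.21), and Mal averaged 10.89 (SD 0.31, n = 5) there, 10.55 (SD 0.25, n = 5) in IFC and 10.35 (SD 0.30, n = 9) at baseline. Microglial genes were higher in 6 and lower in 8 of 14 (median -0.02); the lysosomal protease Lgmn was at 0.20, B2m at 0.15 and the signalling adaptor Tyrobp at -0.31. Of blood genes 3 were measured, with Hbb, a globin, between 10.66 and 12.14 in IFC and 11.05 and 12.60 at baseline (-0.39, SE 0.24, adjusted p 0.815). Choroid plexus genes were higher in 2 and lower in 4 of 6 (median -0.13), and the median was 0.09 without baseline replicate 1, whose score of 2.13 stood apart from -0.38 to 0.11 on the other baseline arrays.

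**Figure D4:**
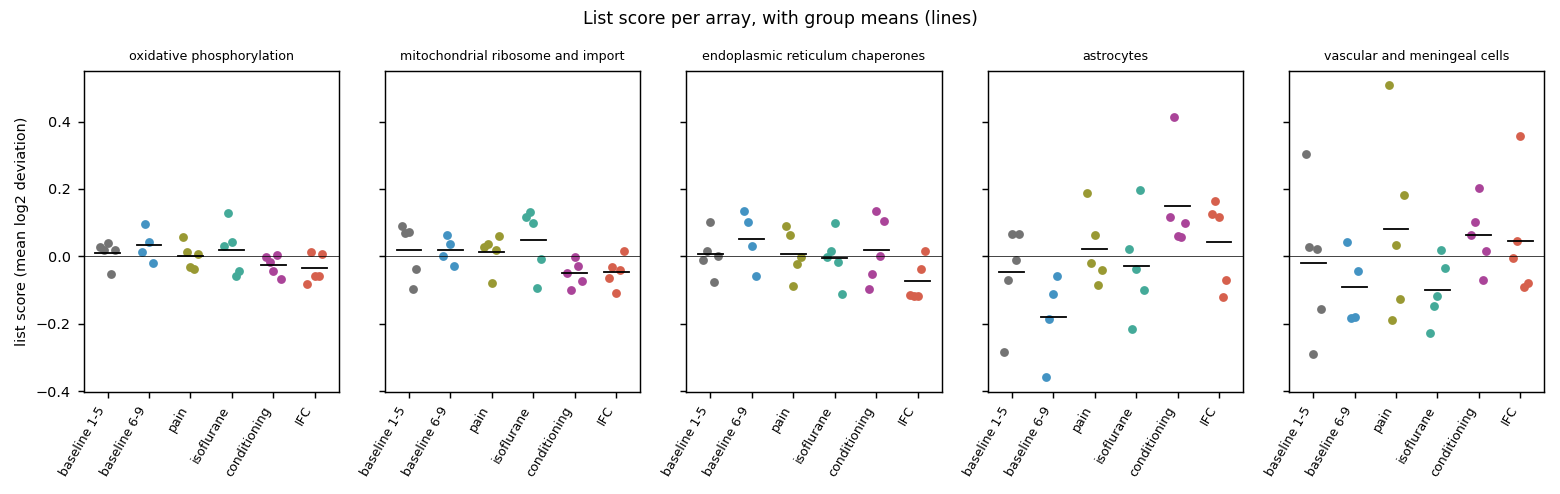
Score of 5 gene lists on each of the 29 arrays (mean log2 deviation of members from their means over all arrays, y axis), by group, with baseline arrays 1 to 5 and 6 to 9 apart and group means as lines. The IFC arrays sit at the lower side for the endoplasmic reticulum chaperones (-0.12 to 0.02), overlap the baseline arrays in both mitochondrial lists, and exceed all baseline arrays on 3 of 5 arrays for astrocytes.

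Neuronal markers overlapped between the groups. Projection-neuron genes were higher in 9 of 12 (median 0.12, and 0.02 without baseline replicate 2), with the transcription factor Mef2c at 0.28 and the peptide gene Cck at -0.34, and Slc17a7 at 0.17 (SE 0.19; its other probe set at 0.36), which became -0.06 against baseline replicates 6 to 9. Interneuron genes were higher in 10 of 17 (median 0.05), with Dlx5, a transcription factor of GABAergic lineages, at 0.48 (SE 0.19, adjusted p 0.692) and Gad1, which makes GABA, at 0.21 (SE 0.15; its other probe set at -0.05). Markers of the neighbouring striatum and central amygdala were lower in 10 of 15 (median -0.09), and those of hypothalamus and thalamus in 6 of 9 (-0.06). Without baseline replicate 3, which scored 0.87 and 0.63 on these lists, both medians were 0.02, and without IFC replicate 4 the second was 0.08.

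Among activity-regulated genes the direction was mixed, 6 h after the procedure. Transcription factors induced by firing were higher in 6 and lower in 7 of 13 (median -0.09), and effector genes higher in 6 and lower in 12 of 18 (median -0.06). Of the effector genes, 1 was higher (5.56%) and 3 lower (16.7%) at unadjusted p under 0.05, against 3.08% and 3.4% of all tested genes. Fos, the classical marker of recent firing, read 8.65, 7.96, 7.84, 8.18 and 6.69 in IFC and 6.18 to 9.21 at baseline, a difference of -0.09 (SE 0.36) that turned to 0.53 against baseline replicates 6 to 9. Arc, which controls AMPA receptor removal at active synapses, read 9.21, 9.33, 9.15, 9.41 and 9.10 against 8.62 to 10.07 (-0.02, SE 0.16, and 0.34 against replicates 6 to 9). For both genes the IFC values lay inside the baseline range.

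Egr1, a zinc-finger factor linked to memory storage in the amygdala, read 10.18 to 10.80 in IFC and 10.50 to 10.95 at baseline (-0.17, SE 0.12, adjusted p 0.845), and Nr4a1, a nuclear receptor induced by activity, differed by -0.29 (SE 0.15). Bdnf, the ligand of the receptor encoded by Ntrk2, read 7.12 to 8.10 against 7.02 to 8.53, a difference of -0.27 (SE 0.23, adjusted p 0.877) that was -0.04 against baseline replicates 1 to 5 and -0.56 against replicates 6 to 9. Lmo4, a transcriptional cofactor expressed in the amygdala, differed by -0.25, with its other probe set at 0.13, and Rheb, the activator of mTOR complex 1, by -0.14 (SE 0.06, adjusted p 0.69).

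Genes of channel families that hold anaesthetic targets were lower in 10 and higher in 7 of 17 measured genes. Their median was -0.10, and 0.04 when only probe sets over the 70th percentile were kept. At unadjusted p under 0.05, 3 were lower (17.6%, against 3.4% of all tested genes) and 1 higher (5.88%, against 3.08%). Not every member is an established target of isoflurane. Besides Gabrb1, the one higher gene, the members were the GABA-A subunit Gabra4 (7.50, 7.79, 7.76, 7.71 and 8.22 in IFC and 7.76 to 8.65 at baseline; -0.45, SE 0.18, adjusted p 0.702) and the leak potassium channels Kcnk6 (-0.42, SE 0.15) and Kcnk1 (-0.41, SE 0.15). Gabra4 also differed by -0.53 after isoflurane alone and -0.58 after conditioning awake, and Gabrb1 by 0.08 and 0.42. The 2 measured glycine receptor genes were lower (median -0.35), neither at unadjusted p under 0.05 on its brightest probe set. Of these genes, Glra2 had a dimmer second probe set at -0.55 (SE 0.24). The glycine receptor medians were -0.45 after isoflurane alone, -0.46 after conditioning awake and -0.35 after pain. Glutamate receptor and postsynaptic genes were higher in 23 of 31 (median 0.09) with 0 higher and 1 lower at unadjusted p under 0.05: Gria3, an AMPA receptor subunit, was at 0.22 (SE 0.11) and the scaffold Dlgap1 at 0.15 (its other 2 probe sets at -0.03), and the metabotropic receptors Grm7 and Grm2 at -0.37 and -0.31.

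Vesicle release genes were higher in 16 and lower in 14 of 30 (median 0.02, and -0.05 under median centring). Vamp2, the vesicle SNARE, read 11.96, 11.37, 11.80, 11.82 and 11.46 in IFC and 10.96 to 11.76 at baseline (0.34, SE 0.13, adjusted p 0.69), and Syn1, which tethers vesicles, differed by 0.28 (SE 0.11), with its other probe set at -0.04. With Sv2b, these were the 3 members higher at unadjusted p under 0.05, or 10% of the list against 3.08% of all tested genes. Kinases and CREB factors of memory storage were higher in 20 and lower in 17 of 37 (median 0.01, and -0.06 under median centring), with Prkacb, a catalytic subunit of protein kinase A, at 0.22 (its other probe set at -0.30) and Prkcz, an atypical protein kinase C, at -0.27. Adhesion genes were higher in 13 of 19 (median 0.02): besides Opcml, the catenin Ctnnd1 was at 0.43 (SE 0.14) and L1cam at 0.28 (SE 0.11).

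Glucocorticoid-responsive genes, which rise when stress hormone reaches the brain, were higher in 14 of 20 (median 0.12), with 1 at unadjusted p under 0.05 (S100b, which the astrocyte list also holds). Fkbp5, a co-chaperone of the receptor, read 8.51, 8.77, 8.93, 8.92 and 8.22 in IFC and 8.07 to 8.77 at baseline (0.23, SE 0.13, adjusted p 0.797), with 3 of 5 IFC arrays at or above the highest baseline array. Gpd1, a glucocorticoid-induced dehydrogenase, was at 0.19 (SE 0.10) and Glul, glutamine synthetase, at 0.14 (SE 0.08), with the other probe sets of Glul at 0.03 each. Side by side, the list medians were 0.18 after isoflurane alone, 0.13 after conditioning awake and 0.09 after pain, and Fkbp5 differed by 0.43, 0.28 and 0.50.

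The remaining lists held 0 adjusted calls as well. Cholesterol synthesis genes were lower in 16 of 21 (median -0.08), with Nsdhl, a sterol dehydrogenase, at -0.29 and Fdps, farnesyl diphosphate synthase, at -0.24 beside Insig1. Endosomal tethering and retromer genes were higher in 14 and lower in 16 of 30 (median 0.00), with 5 of 8 HOPS and CORVET genes lower including Vps11, and Rab7a, the late-endosome GTPase, and the retromer subunit Vps29 were at 0.18 and 0.20. Oxidative stress genes were higher in 22 of 39 (median 0.02, and -0.03 under median centring), with peroxiredoxin Prdx5 at -0.29 (SE 0.09, adjusted p 0.619) and Mgst3 at -0.23. Cytosolic ribosomal proteins were higher in 20 of 38 (median 0.01, and -0.07 under median centring), with Rpl35 at 0.15, and ribosome biogenesis genes in 14 of 28 (0.00), with Nop53 at 0.25 against -0.74 for Rrp1. Selenoprotein genes were higher in 10 of 21 (-0.02, with Selenof at 0.38), clock genes in 5 of 11 (-0.04, and 0.03 without IFC replicate 1, with Bhlhe40 at -0.29), flippases in 4 of 6 (0.05) and cytokine genes in 5 of 11 (-0.01).

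**Figure D5:**
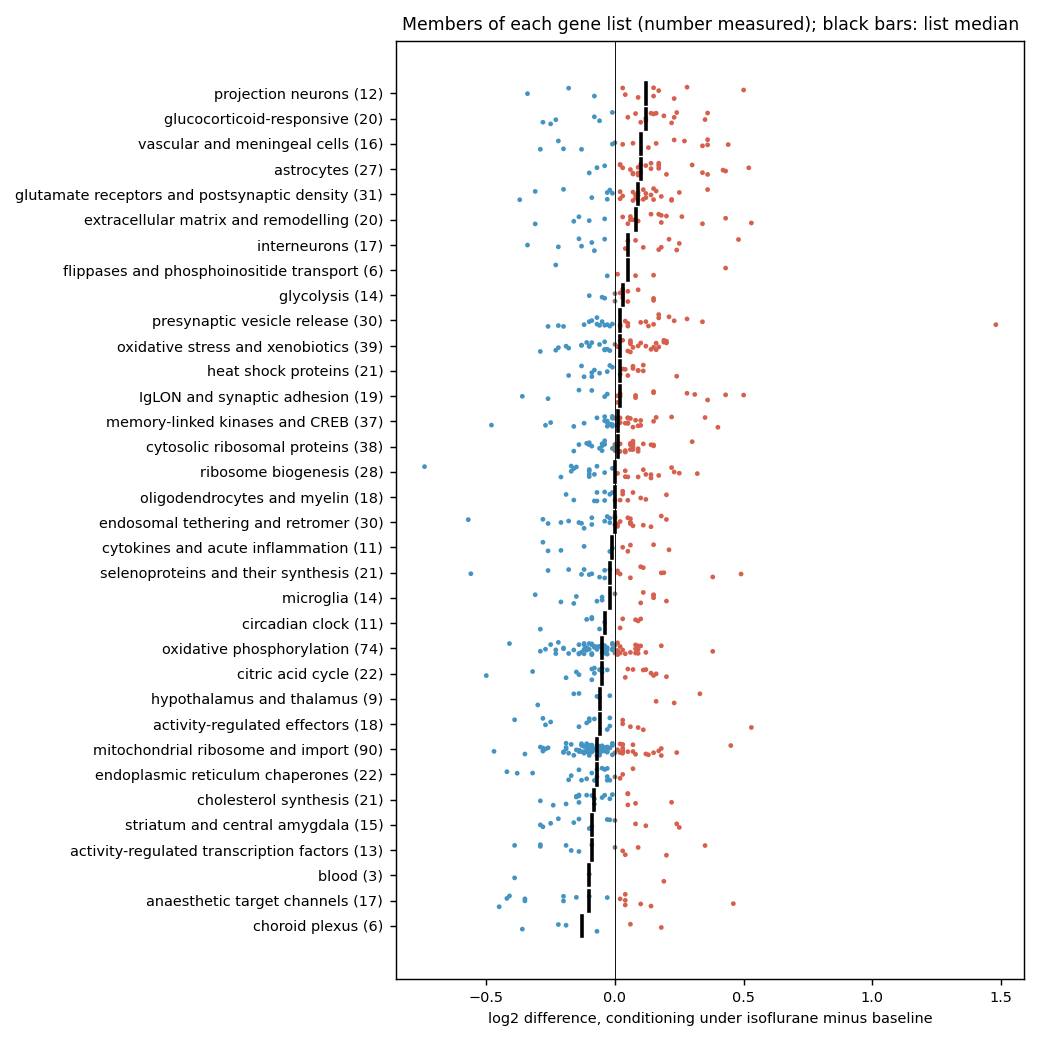
Log2 difference of IFC and baseline (x axis) for every measured member of each gene list (rows, with the number measured; red higher, blue lower), with the list median as a black bar. Medians run from -0.13 for choroid plexus to 0.12 for projection neurons and glucocorticoid-responsive genes, and every list shown has members on both sides of 0; without 1 array the choroid plexus median ran from -0.25 to 0.09 and that of projection neurons from 0.02 to 0.14.

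Conditioning under isoflurane could also be set against each of its components. The kit is named for the isoflurane arrays as it is at baseline, so in the first of these comparisons too labelling and treatment cannot be told apart. With isoflurane alone as the reference, limma found 0 adjusted calls (0%) and 179 higher and 202 lower probe sets at unadjusted p under 0.05. With conditioning awake as the reference there were again 0 adjusted calls (0%), the lowest adjusted p was 0.999, and 170 stood higher and 181 lower before adjustment. The median 95% interval reached 0.294 to either side in these comparisons of 5 arrays each. For Opcml the differences were 0.13 (SE 0.13) and 0.35 (SE 0.13), for Atp9b 0.46 (SE 0.11) and 0.33 (SE 0.11), and for Gabrb1 0.38 (SE 0.14) and 0.04 (SE 0.14), in that order. For Vps11 they were -0.32 (SE 0.14) and -0.23 (SE 0.14), for Mrps23 -0.39 (SE 0.13) and -0.29 (SE 0.13), and for Commd1 -0.39 (SE 0.13) and -0.42 (SE 0.13), each with an adjusted p of 0.991 to 0.999.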

How the data were processed

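The authors deposited linear intensity values for 29 rat arrays read in 1 colour. Trimming 2% of probe sets at each end leaves a mean of 500.08 to 500.12 on all of them, which shows that the deposited intensity values had been scaled per array; software and genome build are not given in the sources used here. Of 15923 probe sets, 57 controls were left out. In the platform annotation 12783 of the remaining 15866 carry 1 gene symbol, 312 several and 2771 none; 12748 were matched to current rat gene identifiers and 0 symbols changed.

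Signals were quantile normalized over the 29 arrays, values under 16 were set to 16, and log2 was taken. Probe sets at or above the 40th percentile of mean log2 signal (7.26) were tested, which left 9520, of which 8043 have 1 symbol (7049 genes). limma 3.58.1 (R 4.3.3) was fitted with 1 mean per group on all arrays and an intensity trend, with two-sided tests and Benjamini-Hochberg adjustment over 9520 probe sets at 0.05. SE and 95% intervals come from this fit, SD is over arrays, and the number of arrays limits precision. In lists a gene is represented by its brightest tested probe set. The script was tested on simulated data.

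The comparison and the 35 gene lists were chosen with earlier results of these data known. The 1 list of sex-linked genes had 0 measured members. Named were the 12 higher and 12 lower genes with the lowest p, the 8 per direction with the largest difference among those whose groups do not overlap, up to 4 members per list with the lowest p, and Fos, Arc, Egr1, Bdnf, Fkbp5, Insig1, Hbb, Gfap and Mbp. Tbca, Hprt1, Gjb6, Sdhb and the mitochondrial genes marked in the text were added after their values were seen. No 2 arrays held identical values (highest correlation 0.9754). Alternatives were other scalings, filters, a higher floor, other fits, each part of the baseline, a replicate block and leaving out each array.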

Additional observations from a re-analysis of the deposited data

Results flagged for a closer look

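In 244 sets of arrays (122 genes and list scores, in IFC and at baseline), 1 array lay far outside the range of the others in 16, where chance alone gives about 1 in 20. The measure is the gap from the extreme array to its nearest neighbour divided by the whole range.

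Flags for genes of the respiratory chain, pyruvate entry, mitochondrial ribosome and import were in IFC, as were flags for several other genes. The lowest Mrps23 value was 8.87 with the next at 9.31 (ratio 0.780), the lowest Ndufa11 value 10.21 with the next at 10.66 (0.759) and the lowest Ndufb11 value 11.54 with the next at 11.87 (0.751), all 3 on IFC replicate 1. The highest value stood apart for Pdhx (8.84 against 8.26, ratio 0.862), Dld (9.95 against 9.64, ratio 0.823), Mrps6 (9.89 against 9.72, ratio 0.743) and Timm10 (10.65 against 10.49, ratio 0.715).

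Hprt1 had 1 IFC array at 7.04 with the next at 11.35 (ratio 0.925). Insig1 had its lowest IFC value at 9.58 with the next at 9.69 (0.941) and its highest baseline value at 10.13 with the next at 9.89 (0.582). In IFC the microglial gene Tyrobp was highest at 8.79 against 8.08 (0.909), Sparc lowest at 11.10 against 11.79 (0.728) and Gja1 lowest at 12.65 against 12.93 (0.719). At baseline Pip4k2a was lowest at 9.78 against 9.95 (0.556), Prdx5 at 10.60 against 10.93 (0.555) and B2m at 11.97 against 12.31 (0.532).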

How the results depend on the processing

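The count of 0 probe sets called in IFC minus baseline was the same in every alternative run except baseline replicates 6 to 9 alone, which gave 57; without 1 array each it was 0, with a lowest adjusted p of 0.159 to 0.631. IFC minus isoflurane and IFC minus fear conditioning had 0 calls in each alternative run for them. Probe sets at unadjusted p under 0.05 numbered 468 higher and 513 lower with no filter and 180 and 183 with the 70th percentile as filter, which changes the number tested, 510 and 480 with array weights, 729 and 652 against baseline replicates 6 to 9, and 179 higher with median centring (229 to 446 higher and 230 to 409 lower without 1 array). Non-overlapping probe sets numbered 4 above with median centring, 5 below at the 70th percentile, 46 above and 54 below against baseline replicates 1 to 5, and 344 and 353 against replicates 6 to 9; fewer arrays leave fewer chances to overlap, and without 1 array the counts were 10 to 31 above and 11 to 29 below. The oxidative phosphorylation median was -0.12 with median centring. Of 34 list medians, 12 took both signs when 1 array was left out: those of choroid plexus, striatum and central amygdala, hypothalamus and thalamus, clock, microglia, oligodendrocytes, cytokines, heat shock, oxidative stress, cytosolic ribosomal proteins, ribosome biogenesis and memory-linked kinases.

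Whether equal numbers pair the samples is not stated. Deviations of same-numbered arrays correlated from -0.15 to -0.02 and 0 of 5 correlated best with their own number, which cannot exclude pairing. With the replicate block, which leaves baseline replicates 6 to 9 out, 0 probe sets were called (300 higher and 239 lower at unadjusted p under 0.05), 46 lay above and 54 below, and Sdhb was 0.02, as it was against baseline replicates 1 to 5.

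Of 117 genes followed, 6 changed sign somewhere and 12 passed only against baseline replicates 6 to 9, where 57 of all 9520 probe sets passed. Fos was 0.01 with array weights, 0.53 against replicates 6 to 9 and -0.31 to 0.21 without 1 array; Arc was 0.03, 0.34 and -0.10 to 0.08. Mbp was -0.04 with the deposited scaling, -0.09 with median centring and 0.00 to 0.08 without 1 array. S100b was -0.01 with median centring, and Slc17a7 was -0.06 against replicates 6 to 9. The causes were not tested.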
